A study of Mus musculus with 20 samples.

Results

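The clones described here had a lower signal in irradiated than in unirradiated mouse lung, with and without flaxseed in the diet. They were chosen by measured values. In the table of processed intensities that the authors deposited, each value was floored at 0.05 and put on the log2 scale, on which 0 is the median spot of its array. A clone was kept when its group mean was lower by at least 0.6 (1.52-fold) after radiation alone than in untreated mice, was also lower by at least 0.6 after flaxseed with radiation than after flaxseed alone, and when its mean over the 10 unirradiated mice was at or above 0. This gave 130 of the 9600 clones on the array. The level condition alone was met by 4813 clones, which are called clones of that level below. The mirrored rule, with both differences at or above 0.6 in the other direction, gave 180 raised clones.

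The study measured lung RNA of 20 C57BL/6 mice, an inbred laboratory strain, with 1 MA07 array per mouse and 5 mice per group. The first group received a diet with 10% flaxseed for 21 days and 13.5 Gy of radiation to the thorax, the second that radiation alone, the third the flaxseed diet alone, and the fourth was untreated. Irradiated lungs were taken 48 hours after the dose. The labels give no modified allele for any group, and what the mice without flaxseed ate, their sex and their age were not given in the sources used here.

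Ionising radiation breaks DNA, and cells answer with the p53 pathway, which arrests the cell cycle, starts repair or leads to cell death. Lymphocytes and dividing cells are among the most sensitive, and in the lung the capillary endothelium and the alveolar epithelium are injured before inflammation and, in this strain, later fibrosis. Flaxseed supplies plant lignans and an omega-3 fatty acid, and has been studied as a dietary protection of irradiated lung. RNA that is lower in a whole lung can mean fewer cells of a type or less RNA in each cell, and these cannot be told apart in bulk tissue. The array's clones carry serial IDs, and none of the 9600 IDs matched the mouse RefSeq table used here (GRCm38.p6). Names, functions and sequences of the clones are therefore not given, and the lung label could not be checked against marker genes.

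The median spot signal of an array lay between 97.4 and 336 units of intensity, and its median background between 13.4 and 46.7. Of the 130 clones, 120 had a signal above 2 times their background on all 20 arrays. So did 4754 of the 4813 clones of that level, a larger share. The table's constant of 0.002, which marks some spots, stood in 5 of their 2600 values, spread over 4 clones. A signal at the highest value in the files, 101691, occurred at 8 spots in all, on 4 arrays, all of unirradiated mice. These 8 spots belonged to 3 of the 130 clones, so that the levels of these clones in those mice are lower bounds. The arrays of lower background were spread unevenly over the groups: of the 10 arrays with the lower backgrounds, 3 came from mice given flaxseed and radiation, 1 from mice given radiation alone, 2 from mice given flaxseed alone and 4 from untreated mice.

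The median radiation difference of the 130 clones was -0.94 with flaxseed (1.92-fold lower) and -1.01 without it (2.01-fold lower). Over the 4813 clones of that level the medians were 0.11 and -0.04. The clones had an interquartile range of -1.42 to -0.72 with flaxseed and of -1.43 to -0.81 without it, and the lowest differences were -3.08 and -3.73. A difference of -1 or lower was held by 63 clones with flaxseed, by 69 without it and by 42 in both diets, and one of -2 or lower by 17, 14 and 10 clones. The difference was larger with flaxseed in 62 clones and larger without it in 68. These values restate the choice of the clones and carry no test.

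**Figure D1:**
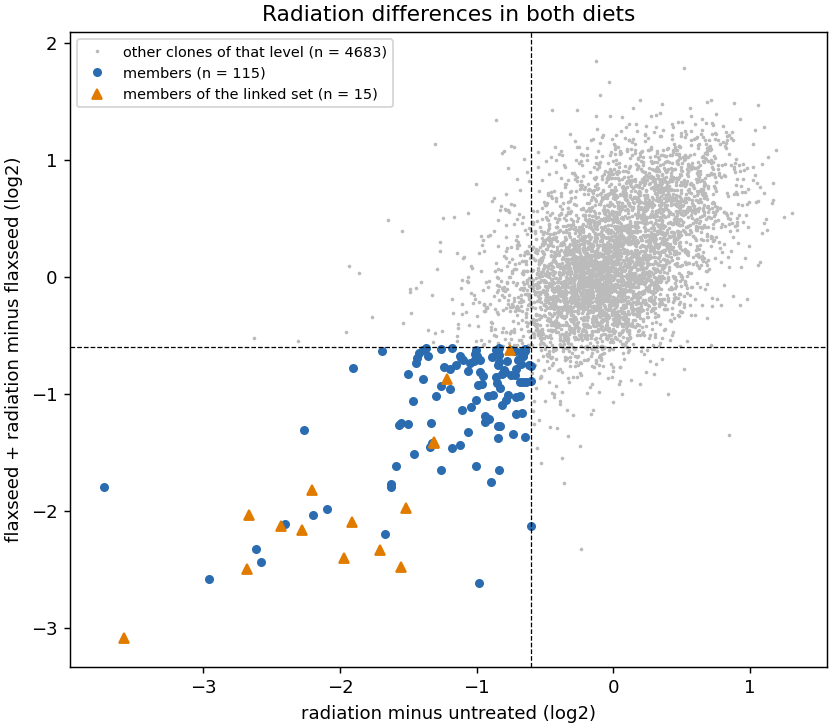
Radiation difference of each clone without flaxseed (horizontal, log2) against the difference with flaxseed (vertical, log2), with dashed lines at -0.6. Blue points and orange triangles are the 130 chosen clones, triangles being the 15 of the linked set described further on, and grey points are the other 4683 clones of that level. Of the 130 clones, 62 lie within 0.2 of a dashed line, and 10 lie at or below -2 on both axes.

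Many of the 130 clones lay close to the thresholds. The value nearest inside was -0.6002 without flaxseed and -0.603 with it, and the nearest outside was -0.594 and -0.599. For the level the nearest values were 0.0043 inside and -0.014 outside. A difference within 0.1 of a threshold was held by 40 of the clones, and one within 0.2 by 62. Another 152 clones of that level passed with flaxseed only, 284 passed without it only, and 74 clones passed both differences but were dimmer than the array median.

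Taken mouse by mouse, the median of the chosen clones separated irradiated from unirradiated lungs. Their median deviation from the mean of the 10 unirradiated mice was -0.87, -0.90, -0.98, -0.97 and -0.82 in the mice given flaxseed and radiation. In the mice given radiation alone it was -1.24, -1.08, -0.98, -1.04 and -1.38. In the mice given flaxseed alone it was 0.12, 0.43, -0.04, -0.10 and 0.25, and in untreated mice -0.03, -0.12, 0.03, -0.15 and 0.25. All 10 irradiated mice lay below all 10 unirradiated mice, an order that the choice of the clones favours. Between 116 and 128 of the 130 clones were below their unirradiated mean in each irradiated mouse, against 27 to 78 in each unirradiated mouse.

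Single clones overlapped more. The 5 mice given flaxseed and radiation all lay below the 5 given flaxseed alone in 33 of the 130 clones, against 1.39% of all clones. The 5 mice given radiation alone all lay below the 5 untreated mice in 30 of the 130 clones, against 1.31% of all clones. Both held in 11 clones. All 10 irradiated mice lay below all 10 unirradiated mice in 8 of the 130 clones and in no other clone of the array, a share of 0.0833%. The rule used these differences, so that nothing is read from the counts.

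The clone with the lowest mean of both differences was gene7016, at 58.8 times the array median in unirradiated mice. Its log2 level was 3.34, 5.27, 2.86, 1.10 and 2.76 in mice given flaxseed and radiation, against 4.93, 6.36, 6.56, 5.92 and 6.96 in mice given flaxseed alone. Without flaxseed it was 3.35, 1.95, 2.37, 3.02 and -0.54 in irradiated mice, against 5.15, 5.20, 6.08, 5.23 and 6.39 in untreated mice. The groups overlapped in the flaxseed diet through 1 irradiated mouse at 5.27, and did not overlap without flaxseed. The differences were -3.08 with flaxseed and -3.58 without it, a mean 10.1-fold lower level.

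The next was gene9495, a dimmer clone at 3.58 times the array median. Its log2 level was -1.69, -1.39, -1.04, 0.00 and 0.59 in mice given flaxseed and radiation, and 1.89, 2.40, 1.60, 1.25 and 2.24 in mice given flaxseed alone. It was 0.19, -0.75, -2.23, -2.03 and -0.97 in mice given radiation alone, and 1.89, 1.43, 1.04, 2.14 and 2.53 in untreated mice. No irradiated mouse reached an unirradiated one. The differences were -2.58 with flaxseed and -2.96 without it, on average 6.83-fold.

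The brightest clone of the array, gene0452, was among the 130, at 649.7 times the array median in unirradiated mice. Its levels lay from 8.09 to 8.77 in mice given flaxseed and radiation, against 9.34 to 9.66 in mice given flaxseed alone, with a difference of -1.02. They lay from 7.76 to 8.84 after radiation alone, against 8.31 to 9.64 in untreated mice, with a difference of -0.92. The lowest untreated mouse, at 8.31, lay within the range of the irradiated mice, and the other 4 did not. The next brightest clone, gene5202 at 523 times the array median, had levels of 7.43 to 8.28 after flaxseed with radiation, against 8.41 to 9.78 after flaxseed alone. In the diet without flaxseed it had 7.29 to 8.37 in irradiated and 8.22 to 9.29 in untreated mice, and its differences were -1.37 with flaxseed and -0.85 without it. At 4 of its spots gene0452 was at the highest value of the files, and gene5202 was at 2.

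**Figure D2:**
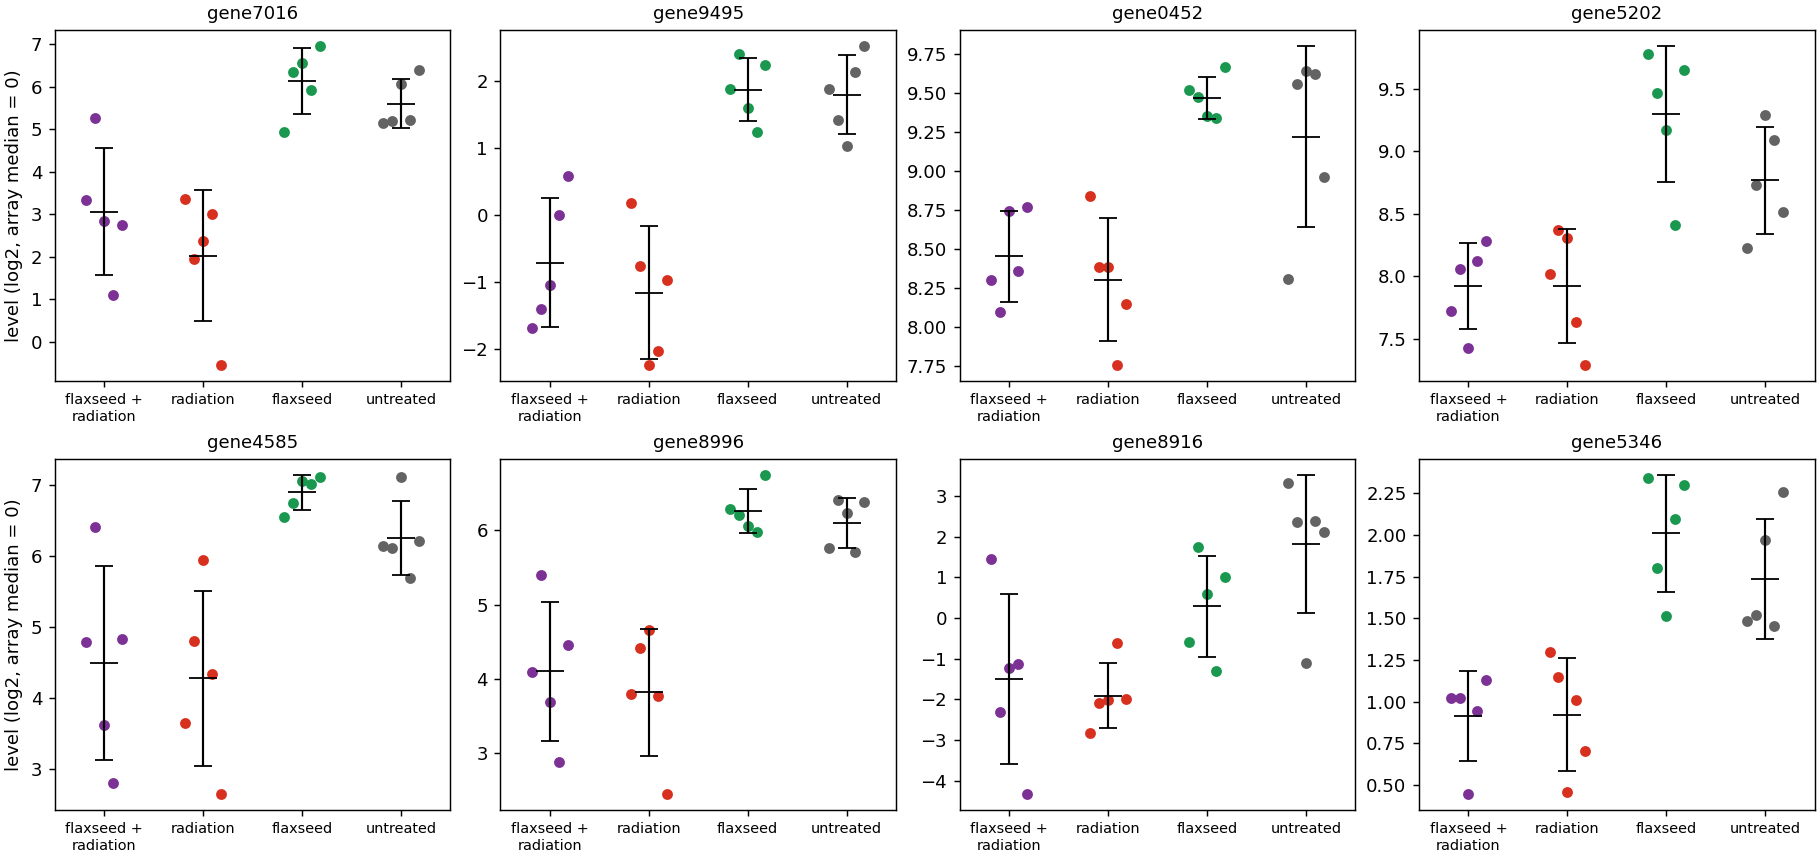
Log2 level (0 is the array median) of 8 of the chosen clones in each of the 20 mice, with 1 panel per clone and its own vertical scale. Points are mice, and bars are the group mean and SD (n = 5 each). In gene7016, gene9495 and gene8996 the irradiated means lie more than 2 below the unirradiated means, whereas gene0452, gene5202 and gene5346 are shifted by about 1 with less spread. Some unirradiated values of gene0452 and gene5202 are lower bounds, at the highest value of the files.

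The 130 clones spanned the levels from the array median upwards, from 1.00 to 649.7 times the median, with a median of 3.58 times. The differences by level are given as medians. In the 26 clones with a log2 level of 4 or more, the median difference was -2.005 with flaxseed and -1.69 without it. The other 339 clones of that brightness had medians of 0.21 and -0.22. The 5 brightest of the 26 were not among the lowest: their mean of both differences lay between -1.11 and -0.75, near the median of the 130 clones or closer to the threshold. These 5 include the 3 clones with spots at the highest value of the files, all in unirradiated mice. The differences of those 3 may therefore be larger than measured. In the 35 clones from 2 to 4 the medians were -0.92 and -1.003, in the 26 from 1 to 2 they were -0.92 and -0.83, and in the 43 from 0 to 1 they were -0.81 and -1.01.

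Processed in another way, the same arrays also gave lower levels, which follows largely from the choice of the clones. Signals were corrected for background with normexp, an offset of 16.3 was added, and arrays were quantile normalised, which gives every array the same distribution of log2 intensities. On that scale 129 of the 130 clones were lower in irradiated mice in both diets, and 114 with flaxseed, 116 without it and 106 in both were at -0.6 or lower. The exception was gene0452, with differences of 0.05 with flaxseed and -0.05 without it. It had the highest intensity of the array on 18 of the 20 arrays, so that quantile normalisation leaves it almost no room for a difference. In the limma fit to all 9600 clones (Benjamini and Hochberg adjusted p under 0.05), 51 of the 130 clones were called lower with flaxseed and 20 without it, against 1.06% and 0.448% of all clones. Of the clones outside the 130, 27.6% were lower in both diets in the deposited table, and the share on the scale of the intensities was not counted. Since the rule used these contrasts on the same arrays, nothing is read from any of the counts on this scale.

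The arrays were also compared within those of lower and of higher background, as a description, since the rule had used the same values and 2 of the comparisons rest on a single mouse in 1 group. With flaxseed, the median over the 130 clones was -1.01 among the arrays of lower background (3 irradiated and 2 unirradiated mice) and -0.99 among those of higher background (2 and 3 mice). Without flaxseed it was -0.91 among the arrays of lower background (1 and 4 mice) and -1.16 among those of higher background (4 and 1 mice). At least 122 of the 130 clones were lower in irradiated mice in each of these 4 comparisons.

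The diet contrasts were not part of the rule, which treats both diets alike, and were tested with limma on the intensities, over all 9600 clones. None of the 130 clones passed an adjusted p under 0.05 in any of them, and neither did any other clone (0% of all clones in each). At an unadjusted p under 0.05, flaxseed differed from no flaxseed in 17 of the 130 clones in unirradiated mice (13.1%, against 9.05% of all clones). In irradiated mice 10 of the 130 passed (7.69%, against 6.04%), and with radiation averaged out 18 passed (13.8%, against 9.03%). All of these chosen clones were higher with flaxseed. Over all clones, 447 were higher and 422 lower at that unadjusted limma p in unirradiated mice. The counts were 285 and 295 in irradiated mice, and 419 and 448 with radiation averaged out. The 130 clones were chosen on the same arrays, and the median half-width of their 95% confidence intervals was 0.69 for a pair of groups, which limits what could be detected in a single clone.

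In direction, the 130 clones were mostly higher with flaxseed. Their median diet difference was 0.13 in irradiated mice, where 88 of 130 (67.7%) were positive, against a median of 0.00 and 50.1% positive over all clones. It was 0.08 without the fifth mouse given both treatments, and also 0.08 without the fifth given radiation alone. In unirradiated mice the median was 0.30, with 99 of 130 positive (76.2%), against 0.01 and 51.4% over all clones. Averaged over radiation it was 0.23, with 102 positive (78.5%), against 0.00 and 50.9%. On the scale of the deposited table the median in irradiated mice was 0.16 over all arrays, -0.02 among those of lower background (3 mice with flaxseed and 1 without) and 0.34 among those of higher background (2 and 4 mice). In unirradiated mice it was 0.19, with 0.05 (2 and 4 mice) and 0.27 (3 and 1 mice). In each diet contrast 1 of these comparisons rests on a single mouse in 1 group, and the part of the background in the values was not tested. Over all arrays of the deposited table, clones of that level had medians of 0.04 in irradiated and -0.13 in unirradiated mice. No test was made of the medians, and the signs of clones that share arrays and places on the membrane are not independent.

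The clone with the smallest p for flaxseed in irradiated mice was gene5272. Its log2 intensity was 8.30, 8.52, 8.48, 8.40 and 7.89 in mice given flaxseed and radiation, and 7.57, 7.59, 7.52, 7.01 and 7.18 in mice given radiation alone. The groups did not overlap. The difference was 0.95 (SE 0.24), with an adjusted p of 0.351 in limma. The limma adjusted p lay from 0.196 to 0.579 over the other ways of processing and with each mouse left out in turn. In unirradiated mice the same clone differed by 0.16 (SE 0.24).

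In unirradiated mice the smallest p belonged to gene8422. Its log2 intensity was 11.84, 11.50, 11.54, 11.14 and 11.61 in mice fed flaxseed, against 10.56, 10.63, 10.69, 11.06 and 11.10 in untreated mice. Here too the groups did not overlap, by a narrow gap of 11.14 to 11.10. The difference was 0.72 (SE 0.20), with an adjusted p of 0.282 in limma. The limma adjusted p lay from 0.174 to 0.505 over the other ways of processing and with each mouse left out in turn. In irradiated mice the diet difference of gene8422 was -0.26 (SE 0.20).

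Averaged over radiation, gene2921 had the smallest p, with a difference of 1.18 (SE 0.31) and an adjusted p of 0.221 in limma. Over the other ways of processing and with each mouse left out in turn, the limma adjusted p lay from 0.137 to 0.349. The log2 intensity of gene2921 was 12.20, 14.19, 13.04, 10.74 and 12.44 in mice given flaxseed and radiation, against 11.33, 10.10, 11.80, 10.78 and 11.90 in mice given radiation alone. In unirradiated mice it was 14.96, 14.80, 14.41, 13.74 and 14.33 with flaxseed, against 13.51, 13.37, 13.79, 13.53 and 13.00 without it. The mice with and without flaxseed overlapped in both settings, and the spread was widest in mice given both treatments.

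Among clones lower with flaxseed, gene6506 had the smallest p in irradiated mice (-0.73, SE 0.41, adjusted p 0.830 in limma) and averaged over radiation (-0.58, SE 0.29, adjusted p 0.567 in limma). In unirradiated mice it was gene8916, at -1.36 (SE 0.67, adjusted p 0.555 in limma). Over the other ways of processing and with each mouse left out in turn, the limma adjusted p-values of gene6506 ranged from 0.712 to 0.997 and from 0.349 to 0.689. Those of gene8916 ranged from 0.358 to 0.780. None of these differences passed the threshold under any setting that was run.

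The interaction, the radiation difference with flaxseed minus that without it, asks whether flaxseed alters the lower level after radiation. It was called in none of the 130 clones (0% of all clones), and 5 of the 130 passed an unadjusted p under 0.05 (3.85%, against 6.02% of all clones). The rule keeps out clones that differ in 1 diet only, which narrows this contrast. Of the 130 clones, 51 had a positive value (39.2%, against 48.2% of all clones) and 79 a negative one. The median was -0.09, against -0.02 over all clones. The median half-width of the 95% interval was 0.98. The median of the interaction moved with single mice, to -0.03 without the second and -0.15 without the fourth mouse given flaxseed alone. It was also over 1.5 times larger or smaller without the fifth mouse given both treatments (-0.13), the fifth given radiation alone (-0.14), the second untreated mouse (-0.05) or the third (-0.05). On the scale of the deposited table it was 0.03.

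The smallest interaction p belonged to gene8422. Its radiation difference was -1.68 with flaxseed and -0.70 without it, an interaction of -0.98 (SE 0.28, adjusted p 0.445 in limma). Over the other ways of processing and with each mouse left out in turn, the limma adjusted p lay from 0.322 to 0.745. Among positive values the smallest p was that of gene5272, with a radiation difference of -0.93 with flaxseed and -1.73 without it. Its interaction was 0.79 (SE 0.34, adjusted p 0.815 in limma, from 0.478 to 0.946 over the same settings).

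Variation between mice of the same group was larger in the 130 clones than in clones of that level. The median SD of the log2 level was 0.63 after flaxseed with radiation, 0.66 after radiation alone, 0.52 after flaxseed alone and 0.51 in untreated mice (n = 5 each). Over all clones of that level the medians were 0.36, 0.44, 0.44 and 0.38. The SD pooled over the irradiated groups exceeded that pooled over the unirradiated groups in 88 of the 130 clones (67.7%). It did so in 48.4% of clones of that level and in 33.3% of the raised clones. The choice of the clones favours wide spreads, and no test was made. The levels of these clones in irradiated mice are nearer to the background, and its part in the spread was not tested.

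The widest and the narrowest clone mark the range. The pooled SD was largest in gene8916, at 1.53. It had 1.45, -2.30, -1.23, -1.13 and -4.32 in mice given flaxseed and radiation, against -0.60, 1.74, 0.58, -1.31 and 1.02 in mice given flaxseed alone. In mice given radiation alone it had -2.84, -2.08, -2.03, -0.62 and -1.98, against 3.31, 2.37, -1.10, 2.39 and 2.11 in untreated mice. The value of -4.32 is the floor, at a spot that held the table's constant, and irradiated and unirradiated mice overlapped in both diets.

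The pooled SD was smallest in gene5346, at 0.33. It had 1.02, 1.02, 0.45, 0.94 and 1.13 in mice given flaxseed and radiation, against 2.34, 1.80, 1.51, 2.09 and 2.30 in mice given flaxseed alone. In mice given radiation alone it had 1.30, 1.15, 0.46, 1.01 and 0.70, against 1.48, 1.52, 1.97, 1.45 and 2.26 in untreated mice. All 10 irradiated mice lay below all 10 unirradiated mice, although its mean difference, -0.95, was near the median of the 130 clones.

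Co-variation between mice was measured with each clone's group means removed, as Pearson's r over the 20 mice, and is given as a description. Pairs share their arrays, and with them depth, background and local effects on the membrane. The 8385 pairs of the 130 clones had a median r of 0.06, with 5% of pairs below -0.38 and 5% above 0.54, and 58.3% were above 0. Pairs of clones of that level had a median of 0.01, with 50.8% above 0. An r of 0.7 or more was held by 1.38% of the pairs of chosen clones and by 0.705% of the pairs of that level. Among clones of like brightness the 95th percentiles were closer than those over all levels (0.54 and 0.47), except at the lowest levels. At a level of 4 or more the median r was 0.06 for the chosen and 0.07 for the other clones, with 95th percentiles of 0.78 and 0.74. The 95th percentiles were 0.56 and 0.58 at 2 to 4, 0.48 and 0.48 at 1 to 2, and 0.52 and 0.44 at 0 to 1. The medians were 0.10 and 0.04 at 2 to 4, 0.04 and 0.01 at 1 to 2, and 0.06 and -0.002 at 0 to 1. At 2 to 4 and at 0 to 1 the medians were no closer than over all levels. The median r of the chosen clones was 0.03 in the irradiated and 0.12 in the unirradiated mice, against -0.003 and 0.02 for clones of that level. The groups within these were uneven. The median r of the chosen clones was 0.002 after flaxseed with radiation and 0.08 after radiation alone. It was 0.19 after flaxseed alone and 0.09 in untreated mice.

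Pairs close to each other on the membrane had higher r whether or not the clones were chosen. At a distance of 1 to 5 spots the median r was 0.23 for the 130 clones and 0.23 for clones of that level. At 6 to 20 spots it was 0.09 and 0.07, and beyond 20 spots 0.05 and -0.01. The spots are laid out in square blocks of 25, and pairs at the same place of different blocks had a median r of 0.22 among the 130 clones, against 0.05 for pairs at other places. For clones of that level these medians were 0.02 and 0.00.

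The highest r between chosen clones was 0.90, for gene4585 and gene8996, on spots of different block rows and columns. The levels of gene4585 were 4.79, 6.41, 3.63, 2.81 and 4.84 in mice given flaxseed and radiation, against 6.54, 6.75, 7.06, 7.02 and 7.11 in mice given flaxseed alone. In gene8996 they were 4.09, 5.40, 3.68, 2.88 and 4.46 in those given both treatments, against 6.28, 6.21, 6.06, 5.98 and 6.75 in those given flaxseed alone. The order of the 5 mice given both treatments was the same in both clones, with the second mouse highest and the fourth lowest. After radiation alone, gene4585 had 3.65, 4.80, 5.95, 4.34 and 2.66 and gene8996 had 3.80, 4.42, 4.66, 3.77 and 2.45, both highest in the third and lowest in the fifth mouse. Untreated mice had 5.69 to 7.11 in gene4585 and 5.71 to 6.41 in gene8996.

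Linking clones with an r of 0.8 or more joined 15 of the 130 clones into 1 set, which holds this pair and gene7016. Smaller links joined 4, 2 and 2 clones, and 107 clones had no link to another of the 130. An r of 0.8 or more was held by 0.358% of the pairs of chosen clones and by 0.190% of the pairs of that level. Such links are not particular to the chosen clones. Of the clones of that level, 55.8% had a link to another of that level, among many more clones to link to. The 15 clones were picked from these values, so that their co-variation is not a separate finding. Their pairs had a median r of 0.72, from -0.07 to 0.90, with 0.82 in irradiated and 0.53 in unirradiated mice. They were brighter than the other 115, with a median log2 level of 5.42 against 1.48, and had larger radiation differences, with medians of -2.09 with flaxseed and -1.91 without it, against -0.90 and -0.98. Among all other clones of the array, only 2 followed the mean of the set with an r of 0.8 or more, and neither was among the 130. Of the 15 clones, 6 were at the first place of the last row of their block and 9 in that row, against 15 and 49 of the other 115. Of the 4813 clones of that level, 225 were at that place. The part of membrane place in the co-variation of the set was not tested.

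The 15 clones separated the irradiated mice from each other. Their mean deviation from the unirradiated mice was -1.67, -0.45, -2.32, -3.05 and -1.73 in mice given flaxseed and radiation, and -2.24, -1.70, -1.29, -1.97 and -3.04 in mice given radiation alone. The unirradiated mice lay between -0.33 and 0.65 with flaxseed and between -0.69 and 0.29 without it. The mildest irradiated mouse, at -0.45, received both treatments and lay inside the range of the untreated mice. The mean of the other 115 clones spread less over the same mice. It was -0.99 ± 0.11 after flaxseed with radiation and -1.20 ± 0.14 after radiation alone, against 0.07 ± 0.25 after flaxseed alone and -0.07 ± 0.17 in untreated mice (SD, n = 5 each). In the same order the 15 clones had -1.84 ± 0.96, -2.05 ± 0.66, 0.11 ± 0.37 and -0.11 ± 0.39. The 15 were linked by co-variation, so that their mean keeps the spread between mice, which averaging over little correlated clones reduces. Nothing is read from this contrast. For single clones the median pooled SD was 0.72 in the 15 and 0.63 in the other 115, with upper quartiles of 0.77 and 0.81. The mouse that was mildest in the 15 clones was at -1.15 in the other 115, the lowest of its group.

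**Figure D3:**
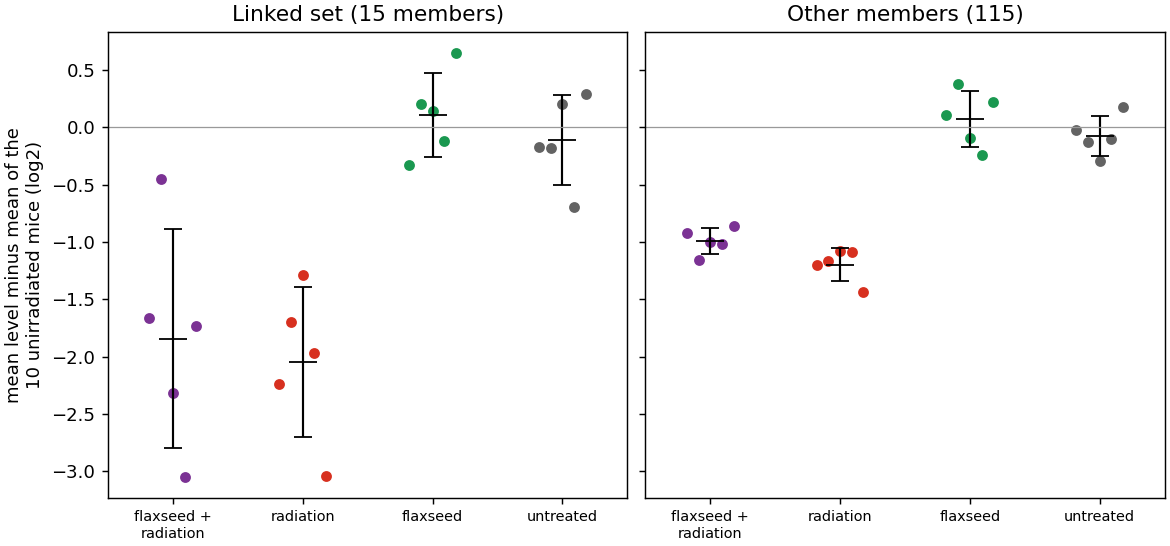
Mean deviation from the 10 unirradiated mice (log2) in each mouse, for the 15 clones of the linked set (left) and the other 115 chosen clones (right). Points are mice, and bars are the group mean and SD (n = 5 each). The irradiated mice range from -0.45 to -3.05 in the linked set and from -0.86 to -1.44 in the other clones. The linked set was picked by co-variation, which widens the spread of its mean.

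**Figure D4:**
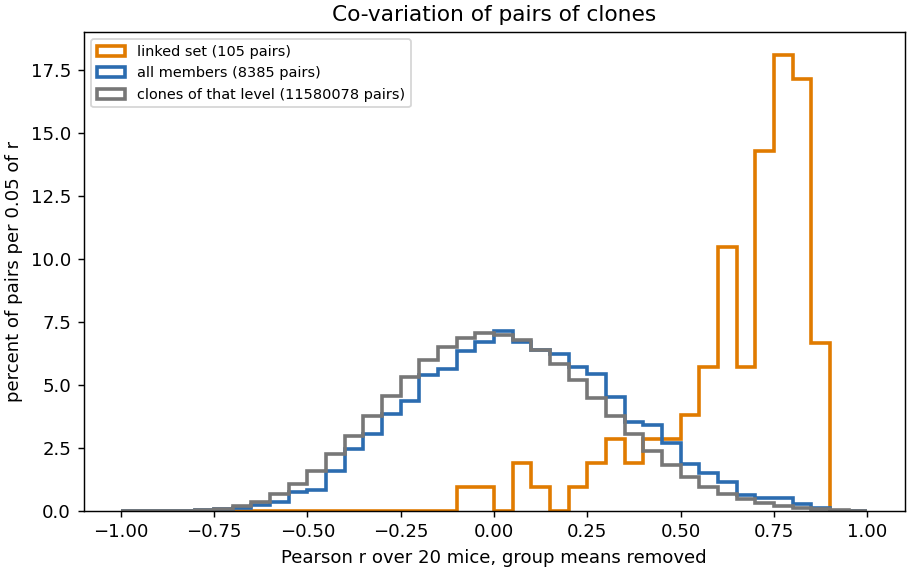
Distribution of Pearson's r over the 20 mice, group means removed (horizontal), as the percentage of pairs per 0.05 of r (vertical). The curves are the 105 pairs of the linked set, the 8385 pairs of all 130 chosen clones and the pairs of all clones of that level. The curve of the 130 clones lies slightly to the right of that of their level, with medians of 0.06 and 0.01, and the linked set, which was picked by r, has its median at 0.72.

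The chosen clones were not spread evenly over the membrane. The 9600 spots form 120 columns and 80 rows, in 24 columns and 16 rows of blocks, as the order of the files gives them. The last 6 block columns, 19 to 24, held 76 of the 130 clones (58.5%, exact 95% interval of 49.5% to 67.0%), against 24.6% of clones of that level and 17.8% of the raised clones. Block columns 7 to 12 held 6 (4.62%), against 24.99% of clones of that level. Block rows 9 to 16 held 89 (68.5%, interval of 59.7% to 76.3%), against 50.9% and 21.1%. The intervals cover counting error only and treat spots as independent, which they are not.

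Within the blocks, places 21 and 22, the first spots of the last row, held 42 of the 130 clones (32.3%), against 10.8% of clones of that level and 4.44% of the raised clones. They are named because they held the most chosen clones of all places, 21 each. At these places 9.33% and 7.12% of the clones of that level were among the 130. The share was 7.64% at place 24, and 5.03%, 4.96% and 4.85% at places 16, 18 and 20. At places 9 and 11 none was. Another chosen clone lay among the 8 nearest spots of 41 of the 130 clones (31.5%), and a chosen clone lay among those of 8.56% of the other clones of that level. The raised clones lay together as well, with another raised clone among the 8 nearest spots of 80 of 180 (44.4%). The 130 clones fell in 87 of the 384 blocks, 25 blocks held at least 2, and the most in 1 block was 5.

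**Figure D5:**
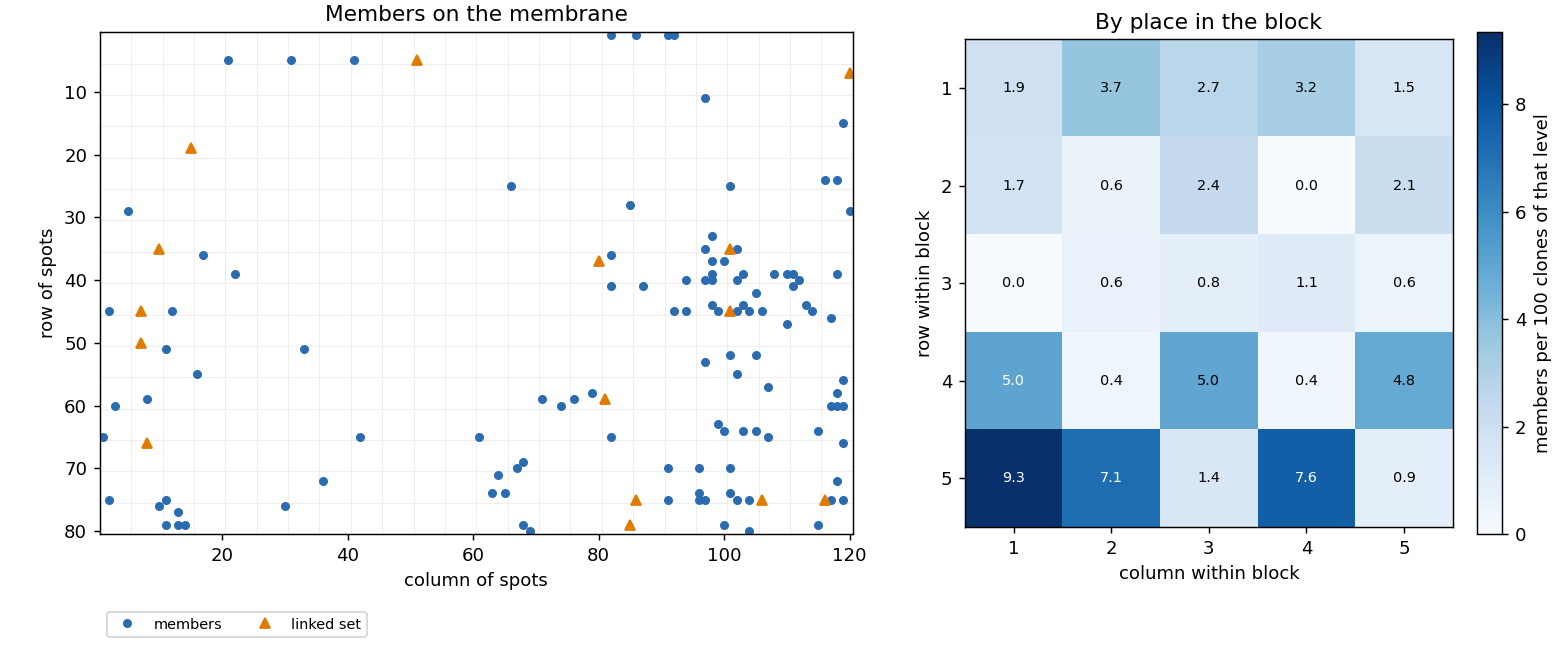
Left, position of the 130 chosen clones on the membrane, by column and row of spots, with the blocks as thin lines and the linked set as triangles. Right, chosen clones per 100 clones of that level at each of the 25 places of a block. The clones lie mostly in the last block columns and the later block rows, and the share is highest at the first place of the last row, 9.3 per 100.

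The radiation differences of the spots around the chosen clones are given as a description. The 830 other clones next to a chosen clone had median radiation differences of -0.06 with flaxseed and -0.12 without it, against 0.03 and 0.04 for the 8640 clones that were not next to one. Of these, the 401 neighbours of that level had medians of 0.02 with flaxseed and -0.22 without it, against 0.13 and -0.003 for the 4282 clones of that level that were not next to one. Among other clones of that level, the block rows 9 to 16 had medians of 0.06 with flaxseed and -0.12 without it, and the block rows 1 to 8 had 0.17 and 0.09. The chosen clones, which the rule holds at -0.6 or lower, had medians of -0.92 and -1.01 in block rows 9 to 16 and -1.02 and -1.01 in block rows 1 to 8. Each array's local median over a square window around each spot was also removed from the table's values before the rule was applied. Then 91 clones were chosen, of which 82 were among the 130. Of these 91, 48.4% lay in block columns 19 to 24, and 13.2% had another of them among the 8 nearest spots, against 6.50% of the other clones of that level. Whether related clones were printed at neighbouring or equal places is not given in the sources used here, and the part of membrane position in the lower levels was not tested.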

How the data were processed

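Lung RNA of 20 mice was labelled with 33P during reverse transcription and read on 1 array per mouse, per the labels. The deposited array tables hold linear intensities, the median signal and the median background of each of 9600 spots, not background-subtracted, per the file headers. The authors also deposited a table of processed intensities of unstated making. Background-subtracted signals, each divided by their median on the array, gave 98.1% of the table (relative tolerance 0.001), and the other 1.85% were the constant 0.002, for a reason that is unknown. Its rows follow the order of the array tables. The sources used here do not give the scanner or the image software.

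The clones were chosen on the processed table. The members and lists were chosen with earlier results of these data known. Diet contrasts and the interaction were tested on the array tables with limma 3.58.1 under R 4.3.3: normexp with an offset of 16.3 (0.1 times the median signal of 162.5), quantile normalisation, lmFit with 1 mean per group over the 20 arrays and eBayes (16 residual and 6.08 prior degrees of freedom). Tests were two-sided and adjusted by Benjamini and Hochberg over 9600 clones. The offset understates the differences of dim clones. Fits were tested on simulated data. The number of arrays limits the precision. Mouse numbers in the labels differ for all arrays, and each array was counted as 1 mouse. No label or header gives a batch, and the median background of the array was used to split the arrays. Alternatives were other scalings, background corrections, floors, thresholds, filters, array weights, the array's background as a covariate, removal of the membrane trend, and leaving out each mouse. Clones are named by this rule: the lowest mean of both radiation differences (2 clones), the smallest p in each direction of each tested contrast, the highest level (2 clones), the pair with the highest r, and the largest and smallest SD. Lists of cell type and pathway genes could not be looked up, since the IDs carry no gene names.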

Additional observations from a re-analysis of the deposited data

Results flagged for a closer look

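Each group of 5 mice was examined for a mouse far from the other 4, for the named clones and the array backgrounds. Of 64 groups examined, 4 held such a mouse, and a rate of 1 in 20 would give 3.2. The clones were named from these same values, and gene8916 was examined on both scales. The rate of 1 in 20 need not hold for them, and nothing is read from the count. In gene8916 the third untreated mouse had a log2 level of -1.10 in the deposited table, against 2.11 to 3.31 in the other 4, and a log2 intensity of 6.45 on the scanner scale, against 9.24 to 10.19. In gene5346 the third mouse given flaxseed and radiation had a level of 0.45, against 0.94 to 1.13 in the others. The first untreated mouse had a median background intensity of 35.8, and the other 4 of that group had 15.8 to 18.6.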

How the results depend on the processing

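The number of chosen clones was 68 with both differences at or below -0.8 and 204 without the level requirement, and both follow from the rule itself. Under the other 9 alternatives it lay between 87, at a level of 1 or more, and 184, at -0.5, and without 1 mouse in turn between 109 and 146. With each mouse left out in turn, 62 of the 130 (47.7%) were chosen every time. Chosen on quantile-normalised intensities, 106 of 128 clones were among the 130, with cyclic loess 109 of 157, and with the membrane trend removed 82 of 91. With that trend removed the share in block columns 19 to 24 was 48.4% and the share with a chosen clone among the 8 nearest spots 13.2%. The median radiation difference ranged from -1.09 to -0.84 with flaxseed and from -1.16 to -0.88 without it. The diet contrasts and the interaction gave 0 calls among the 130 clones under all alternatives, and the medians of the diet contrasts on the intensities stayed above 0. Without 1 mouse in turn, that in irradiated mice lay between 0.08 and 0.17 and that of the interaction between -0.15 and -0.03. The median of the interaction was -0.09 and lay between -0.16 and 0.03, above 0 on the deposited table and with median scaling (0.02); the cause was not tested. Named clones kept the direction of their differences. The median r of pairs ranged from 0.03 to 0.07, and that of the linked set from 0.63 to 0.75. No paired analysis was possible because no mouse number in the labels occurs in more than 1 group. With 5 mice per group, dim clones near the background and single-clone diet differences are the least certain values.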
